A study of Mus musculus with 4 samples.

Results

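Basophil-like cells were picked out of the bone marrow of 4 mouse genotypes by their own granule protease and IgE receptor transcripts. A cell was a member when it had 500 to 4000 detected genes, at most 15% of its unique molecular identifiers (UMIs, each standing for 1 captured mRNA molecule) from mitochondrial genes, at least 5 UMIs of Mcpt8, Prss34, Cpa3, Ms4a2 and Fcer1a together, and under 10% of its UMIs from the neutrophil genes S100a8 and S100a9. In all, 262 of 31457 filtered cells met the rule. There were 9 in DKO, 87 in TKO, 85 in IL6 KO and 81 in TWT. Marrow from femur and tibia, depleted of red cells, was profiled by 10x 3′ v3 single-cell sequencing, with 1 library per genotype and an age of 12 months on every label. DKO mice lacked mDia1 (the actin-nucleating formin encoded by Diaph1) and miR-146a (a microRNA that restrains Toll-like receptor signaling) and kept Il6. TKO mice lacked mDia1, miR-146a and IL-6, IL6 KO mice lacked IL-6 alone, and TWT mice were wild-type at all 3 genes. All 4 were labelled C57/B6 and all the deletions were constitutive, so every cell type carried them. The sources used here do not say how many mice were pooled. A single library stood for each genotype, so genotypes could not be tested against each other, and the exact 95% intervals given throughout express counting error alone.

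Basophils are granulocytes made in the bone marrow that bind IgE through the high-affinity receptor FcεRI and release histamine, leukotrienes, proteases and IL-4 when it is crosslinked. Mast cells share the receptor and several granule enzymes but mature in tissues. There they make tryptases and chymases, such as those of Tpsb2, Tpsab1 and Mcpt4, that basophils largely lack. GATA2 and C/EBPα direct basophil development, and IL-3 and thymic stromal lymphopoietin expand basophils.

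The promoters of the 4 marker genes are shown because GATA2, a factor that binds GATA sequences, was seen in nearly every member. They are RefSeq sequences of GRCm38.p6 that run from 250 bases before to 50 bases after the annotated start, and capitals mark GATAA or its reverse complement TTATC. The windows are chr14:56085148-56085447 (minus strand) for Mcpt8, chr17:25298144-25298443 (plus) for Prss34, chr19:11623670-11623969 (minus) for Ms4a2 and chr16:44943428-44943727 (plus) for Cd200r3.
Mcpt8: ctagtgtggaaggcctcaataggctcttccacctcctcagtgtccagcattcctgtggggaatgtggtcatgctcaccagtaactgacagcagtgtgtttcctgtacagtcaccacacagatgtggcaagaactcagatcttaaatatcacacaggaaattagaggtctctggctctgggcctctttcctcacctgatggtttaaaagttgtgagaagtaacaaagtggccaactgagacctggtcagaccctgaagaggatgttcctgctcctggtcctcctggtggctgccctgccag
Prss34: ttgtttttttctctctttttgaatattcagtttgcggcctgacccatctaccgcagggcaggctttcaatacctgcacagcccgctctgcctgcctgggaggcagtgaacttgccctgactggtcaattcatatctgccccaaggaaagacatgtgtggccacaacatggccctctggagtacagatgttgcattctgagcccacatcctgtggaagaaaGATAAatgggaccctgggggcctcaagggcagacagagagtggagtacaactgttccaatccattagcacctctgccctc
Ms4a2: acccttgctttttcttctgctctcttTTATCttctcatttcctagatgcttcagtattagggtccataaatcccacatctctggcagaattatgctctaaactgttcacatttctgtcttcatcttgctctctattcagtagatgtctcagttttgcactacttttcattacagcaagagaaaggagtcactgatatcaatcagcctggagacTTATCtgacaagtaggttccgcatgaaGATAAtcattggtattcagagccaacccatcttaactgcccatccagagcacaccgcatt
Cd200r3: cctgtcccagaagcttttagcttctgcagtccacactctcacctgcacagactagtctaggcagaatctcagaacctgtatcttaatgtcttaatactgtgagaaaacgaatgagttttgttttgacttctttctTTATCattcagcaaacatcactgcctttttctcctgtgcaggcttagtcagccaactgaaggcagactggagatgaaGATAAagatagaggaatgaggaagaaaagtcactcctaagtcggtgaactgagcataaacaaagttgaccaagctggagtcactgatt
The Ms4a2 window held 3 matches, that of Cd200r3 held 2, that of Prss34 held 1 and that of Mcpt8 held none. Of 32851 mouse promoter windows, 25.4% held at least 1 match on either strand. These are matches of letters only. The mature microRNA deleted in DKO and TKO, with its seed (bases 2 to 8) in capitals, lies at chr11:43374435-43374456 on the minus strand.
mmu-miR-146a-5p: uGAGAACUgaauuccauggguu

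The label covers basophils and mast cells, and the mast cell tryptase and chymase genes listed here were at or near 0. Cd200r3, an activating receptor of basophils and mast cells that the rule did not use, had a UMI in 22.2% of members in DKO, 88.5% in TKO, 91.8% in IL6 KO and 84.0% in TWT. After thinning to 1500 UMIs per cell, which dropped cells below that depth (1 TKO member, and all but 1447 B cells in TKO, 1213 in IL6 KO and 1152 in TWT), the shares were 72.1% in TKO, 74.1% in IL6 KO and 70.4% in TWT, against 0% of B cells in each of these libraries. Gata2 was seen in 97.7% of members in TKO, 96.5% in IL6 KO and 100% in TWT. After thinning its shares were 87.2%, 88.2% and 88.9% in that order, against at most 0.247% of B cells. B cells had medians of 2556, 2998 and 2605 UMIs before thinning, and members 4410, 3601 and 3791, in the same order. Of 7 mast cell markers in the files, the tryptases Tpsb2 and Tpsab1, the chymase Mcpt4 and the receptors Mrgprb1 and Mrgprb2 were at 0 in the members of all 4 libraries. Cma1, another chymase, had 3 UMIs in 1 TWT cell. The remaining marker, the vesicular amine transporter Slc18a2, which basophils also use to store histamine, had 73 UMIs in TKO, 91 in IL6 KO and 59 in TWT. Kit, a listed progenitor marker, had a UMI in 10.3% of members in TKO, 7.06% in IL6 KO, 17.3% in TWT and 44.4% in DKO. The tryptases and chymases mark mature mast cells, and Cd200r3 is shared. Immature mast cells among the members therefore cannot be told apart. With that limit the members are called basophil-like cells.

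Members were a small and similar share of the filtered cells in TKO, IL6 KO and TWT, and nearly missing from DKO. The share was 0.0935% in DKO (9 of 9627 cells, 0.0428 to 0.177%), 1.15% in TKO (87 of 7560, 0.923 to 1.42%), 1.14% in IL6 KO (85 of 7476, 0.909 to 1.40%) and 1.19% in TWT (81 of 6794, 0.948 to 1.48%). The DKO share was 0.0784 times that of TWT (0.0346 to 0.156) and 0.0812 times that of TKO (0.0359 to 0.161). TKO and TWT differed by a factor of 0.965 (0.705 to 1.32), IL6 KO and TWT by 0.954 (0.695 to 1.31), and TKO and IL6 KO by 1.01 (0.742 to 1.38). Fewer basophil-like cells and more cells of other types cannot be told apart in such a share. Just under the threshold, 0 cells in DKO, 6 in TKO, 6 in IL6 KO and 4 in TWT had 4 UMIs of the rule genes, and just at it 0, 2, 0 and 2 cells had 5.

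**Figure D1:**
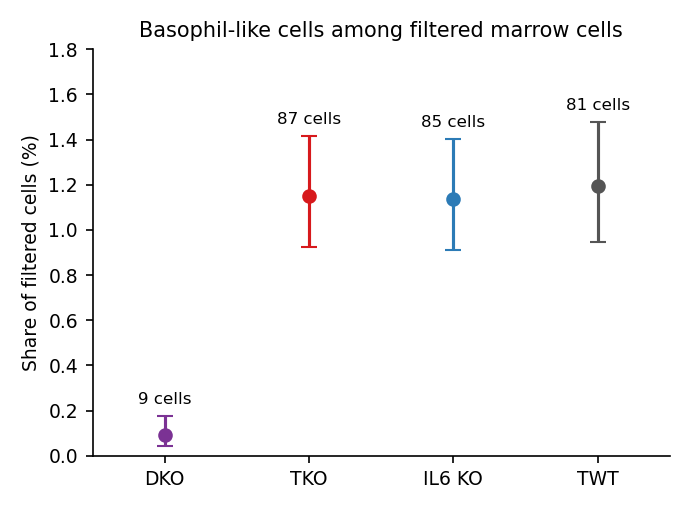
Share of filtered cells (%, y axis) that met the rule for basophil-like cells in each library (x axis), with exact Clopper-Pearson 95% intervals for counting error. DKO sits at 0.0935% and the other 3 libraries lie between 1.14% and 1.19% with overlapping intervals.

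The 9 DKO cells were a mixture. Only 2 of them had many UMIs of Mcpt8 and Prss34 together, 482 and 69. These were also the only ones with Cd200r3 (6 and 3 UMIs), which most members elsewhere carried. The other 7 had 0 to 5 UMIs of the protease pair, and 5 of the 9 had met the rule mainly through Cpa3, which hematopoietic progenitors also express. A low protease pair was not particular to DKO. The pair was at 0 in 8 of 87 members in TKO, 15 of 85 in IL6 KO and 7 of 81 in TWT. Cpa3 was the main source of rule UMIs in 5, 2 and 3 members in that order. Among the 7, 1 cell had 9 UMIs of Gata2, 3 of Ms4a2 and 1 of Fcer1a, and another had 5, 2 and 9. Both lacked Mpo and Ctsg. Progenitor proteases of the neutrophil and monocyte lineages were present in most of the 9 cells. The most extreme cell had 289 UMIs of Ctsg, 161 of Elane, 125 of Prtn3 and 71 of Mpo against 8 of the 5 rule genes. Over the 9 cells the 7 progenitor markers summed to 11673 CPM (counts per 1e6 UMIs, over the members' summed UMIs), against 3612 in TKO, 2384 in IL6 KO and 3967 in TWT. That 1 cell held 701 of the 1191 UMIs behind the DKO value. Members in DKO had a median of 10609 UMIs per cell against 4410 in TKO, 3601 in IL6 KO and 3791 in TWT. With so few cells DKO was left out of the comparisons of genes.

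Depth and quality of the other libraries were close. Members summed to 536057 UMIs in TKO, 423625 in IL6 KO and 442687 in TWT, and their median mitochondrial share was 3.11%, 3.29% and 3.67% in that order. Scrublet called 1, 3 and 3 of these members doublets, again in that order, and none in DKO. Pairs of libraries shared 19 to 36 cell barcodes, none of them among members. Xist, which coats the silenced X in females, had 658 UMIs in 71 of 85 members of IL6 KO and 0 in DKO, TKO and TWT, while the Y-linked Ddx3y had 30 UMIs in TKO, 0 in IL6 KO and 23 in TWT. IL6 KO therefore also differs from TKO and TWT in sex, which cannot be told apart from genotype. Diaph1, a check on the labels, had 17 UMIs (31.7 CPM, 18.5 to 50.8) in TKO members, 141 (333 CPM, 280 to 393) in IL6 KO and 123 (278 CPM, 231 to 332) in TWT. Its ratio was 0.114 (0.0644 to 0.190) for TKO over TWT.

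Beside the rule genes, members carried transcripts that were scarce in the other marrow cells. Of 4827 genes with at least 10 UMIs in the members of each of TKO, IL6 KO and TWT, 65 (1.35%) were at least 20-fold higher in members than in the other filtered cells of all 3 libraries. For 26 of them the members held at least 50% of all UMIs of the filtered cells in every library. Since the members were chosen on these same cells, these are descriptions without a test. Cd200r3 was among these, with 94.1% of its UMIs in members in TKO, 84.9% in IL6 KO and 93.7% in TWT. Alox15, a lipoxygenase that acts on arachidonic and linoleic acid, had 96.5%, 84.3% and 86.7% in the same order. Il4, the type 2 cytokine, had 25 of its UMIs in members in TKO (92.6%), 43 in IL6 KO (81.1%) and 32 in TWT (71.1%). Gata2 had 79.5%, 68.4% and 75.5%. Genes known from other tissues were among them, and those that follow were picked after seeing their values. Cyp11a1, the enzyme that starts steroid hormone synthesis from cholesterol, had 91.3% of its UMIs in TKO members, 76.6% in IL6 KO and 86.0% in TWT. Csrp3, a muscle LIM protein, had 354 UMIs in members in TKO (83.5%), 270 in IL6 KO (82.8%) and 243 in TWT (87.7%). The serotonin receptor gene Htr1b had 29, 29 and 24 UMIs in members, and the growth factor gene Fgf3 had 39, 20 and 34, both in the same order. The adhesion gene Cdh1 had 150, 108 and 145, the chemokine gene Ccl3 had 371, 472 and 359, and the anaphylatoxin receptor gene C3ar1 had 44, 62 and 60.

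The granule proteases that chose the members stood at 14164 CPM in TKO, 12369 in IL6 KO and 12293 in TWT for Mcpt8, and at 24792, 16373 and 14554 CPM in that order for Prss34, which is given as a description. The receptors and enzymes of the effector program that are named here lay within 2-fold of each other in the 3 genotypes. Fcer1g, the signaling chain of FcεRI, had 2317 CPM in TKO, 2346 in IL6 KO and 1992 in TWT. Ms4a2, its β chain and a rule gene, had 1069, 1213 and 1082 CPM in that order. Hdc, the enzyme that makes histamine, had 619 CPM (555 to 690) in TKO, 838 (753 to 930) in IL6 KO and 933 (845 to 1027) in TWT, so that the TKO interval lay below those of the other genotypes. Alox5, which opens the leukotriene pathway, had 308, 397 and 382 CPM, and its partner Alox5ap 1485, 1537 and 1355, in the same order. Csf2rb, the shared β chain of the IL-3, IL-5 and GM-CSF receptors, had 631, 753 and 691 CPM. Crlf2, the thymic stromal lymphopoietin receptor, had 220, 234 and 215, and Il18rap, a subunit of the IL-18 receptor, had 384, 366 and 436. Il6ra and Il6st, the chains of the IL-6 receptor, were at the edge of detection in members, with 3 and 2 UMIs in TKO, 3 and 1 in IL6 KO and 3 and 0 in TWT. In the other filtered cells Il6ra had 70.7 CPM in TKO, 81.8 in IL6 KO and 71.9 in TWT.

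Members fell along a wide range of granule protease content in every library. Mcpt8 and Prss34 together ran between 0 and 1256 UMIs per cell in TKO, 0 and 897 in IL6 KO and 0 and 1191 in TWT. Cells with at least 50 UMIs of the pair, called protease-rich below, were 41 in TKO (47.1% of members, 36.3 to 58.1%), 31 in IL6 KO (36.5%, 26.3 to 47.6%) and 29 in TWT (35.8%, 25.4 to 47.2%). The intervals overlapped. The threshold was set after the values were seen, and it cuts a range, since 9 cells in TKO, 9 in IL6 KO and 6 in TWT lay between 25 and 99 UMIs. Protease-rich cells had more UMIs in all, with medians of 5996 UMIs in TKO, 6672 in IL6 KO and 6669 in TWT, against 3574, 3085 and 2918 in protease-poor cells. The comparisons that follow are therefore on the CPM scale, which does not undo the choice of cells by raw UMIs. Protease-poor cells were not all shallow. Those with 0 UMIs of the pair reached 15937 UMIs in all in TKO, 9730 in IL6 KO and 14741 in TWT. Such cells weigh more than shallow ones in the summed UMIs of the protease-poor end.

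**Figure D2:**
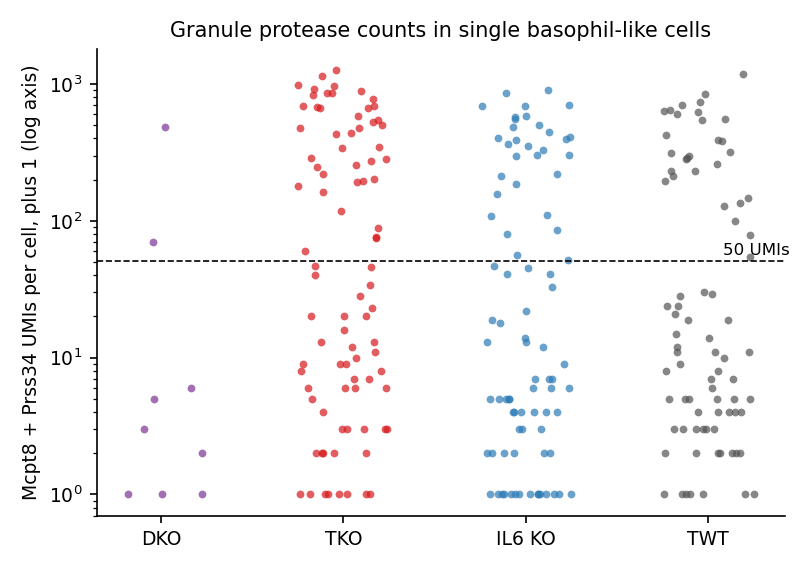
UMIs of Mcpt8 and Prss34 together in each basophil-like cell (y axis, plus 1, log scale) by library (x axis, spread sideways for view), with a dashed line at 50 UMIs. TKO, IL6 KO and TWT each run between 0 and 897 to 1256 UMIs with 6 to 9 cells between 25 and 99, and 2 of 9 DKO cells lie above it.

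The 2 ends of the range differed in division genes and in some chemokine genes in all 3 libraries. Of 1157 genes measured in each (100 CPM or more at 1 end and 50 UMIs or more over both), 43 (3.72%) were at least 2-fold higher in protease-rich cells in TKO, IL6 KO and TWT alike and 34 (2.94%) at least 2-fold lower. The cells were ranked on the same UMIs, so no test is given. The median log2 ratio over all measured genes was -0.06 in TKO, -0.01 in IL6 KO and -0.04 in TWT. Neither the rule genes nor S100a8 and S100a9 are in these counts.

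All 5 measured genes of the G2/M list were higher in protease-rich cells. Top2a, the topoisomerase that untangles replicated DNA, had 453 CPM in rich against 49.4 in poor cells of TKO, 456 against 72.4 in IL6 KO and 339 against 31.6 in TWT. Mki67, the proliferation antigen Ki-67, had 399 against 22.5, 386 against 103 and 308 against 45.1 CPM in the same order, and Ube2c, Birc5 and Hmgb2 moved alike. A dividing cell was counted as one with at least 2 UMIs of 8 division genes. In TKO 48.8% of rich (32.9 to 64.9%) and 10.9% of poor cells (3.62 to 23.6%) met this, in IL6 KO 54.8% (36.0 to 72.7%) and 3.70% (0.452 to 12.7%), and in TWT 58.6% (38.9 to 76.5%) and 7.69% (2.14 to 18.5%). After thinning to 1500 UMIs, 36.6% of rich and 0% of poor cells in TKO, 41.9% and 3.70% in IL6 KO, and 37.9% and 5.77% in TWT still met it. Rich and poor cells had been set apart on raw UMIs before thinning. Thinning therefore does not undo that choice, by which deeper cells pass as rich more easily. Whether the difference holds with cells grouped by the pair's share of their UMIs was not tested. Over all members, 28.7% in TKO (19.5 to 39.4%), 22.4% in IL6 KO (14.03 to 32.7%) and 25.9% in TWT (16.8 to 36.9%) were dividing, and 17.4%, 17.6% and 17.3% after thinning, so no difference between genotypes was detectable at this depth.

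Of 3 measured genes of the neutrophil and monocyte progenitor list, 2 were higher in the same cells and 0 lower. Ctsg, the protease cathepsin G, had 3425 CPM in rich against 166 in poor cells of TKO, 2092 against 31.0 in IL6 KO and 3190 against 393 in TWT. Ms4a3, a granulocyte progenitor gene and the other of the 2, had 574 against 117, 577 against 31.0 and 665 against 189 CPM in that order. Of 13 measured genes of the stage and trafficking list, 1 was higher in protease-rich cells and 2 were lower. The higher one, the lectin receptor gene Clec12a, a marker of younger basophils in mouse marrow, had 338 against 13.5, 330 against 56.9 and 416 against 76.7. Also among the 43, and named after their values were seen from no fixed list, were the chaperone and folding enzyme genes Hspa5 (950 against 153 CPM in TKO, 951 against 197 in IL6 KO and 511 against 208 in TWT), Pdia3, Pdia6, Hsp90b1, Sdf2l1, Dnajc3 and Ppib. With them were Rpn1, Rpn2 and Ddost, subunits of the enzyme that attaches N-glycans, and Ssr1 and Ssr4 of the translocon.

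Of 7 measured genes of the cytokine and chemokine list, 4 were lower in protease-rich cells and 0 higher, namely the chemokine genes Ccl4, Ccl6 and Ccl9 and Ifitm1, which encodes an interferon-induced membrane protein. Ccl6 had 329 CPM in rich against 2404 in poor cells of TKO, 226 against 4471 in IL6 KO and 317 against 2549 in TWT. Ccl4 had 115 against 557, 69.5 against 823 and 154 against 943 CPM in the same order. The 2 lower genes of the stage and trafficking list were Ccr2 and Cxcr2. Ccr2, the receptor that brings monocytes out of the marrow, had 112 against 422 CPM in TKO, 65.1 against 471 in IL6 KO and 72.4 against 239 in TWT. Cxcr2, the receptor for CXC chemokines, had 112 against 324, 78.1 against 512 and 72.4 against 343. The early response genes Zfp36, Jund and Btg2 were also among the 34. Gata2 differed by under 2-fold along the range, at 1438 CPM in rich against 1595 in poor cells of TKO, 1463 against 1609 in IL6 KO and 1479 against 1751 in TWT. So was Alox15, at 195 against 220, 200 against 207 and 222 against 190 CPM.

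**Figure D3:**
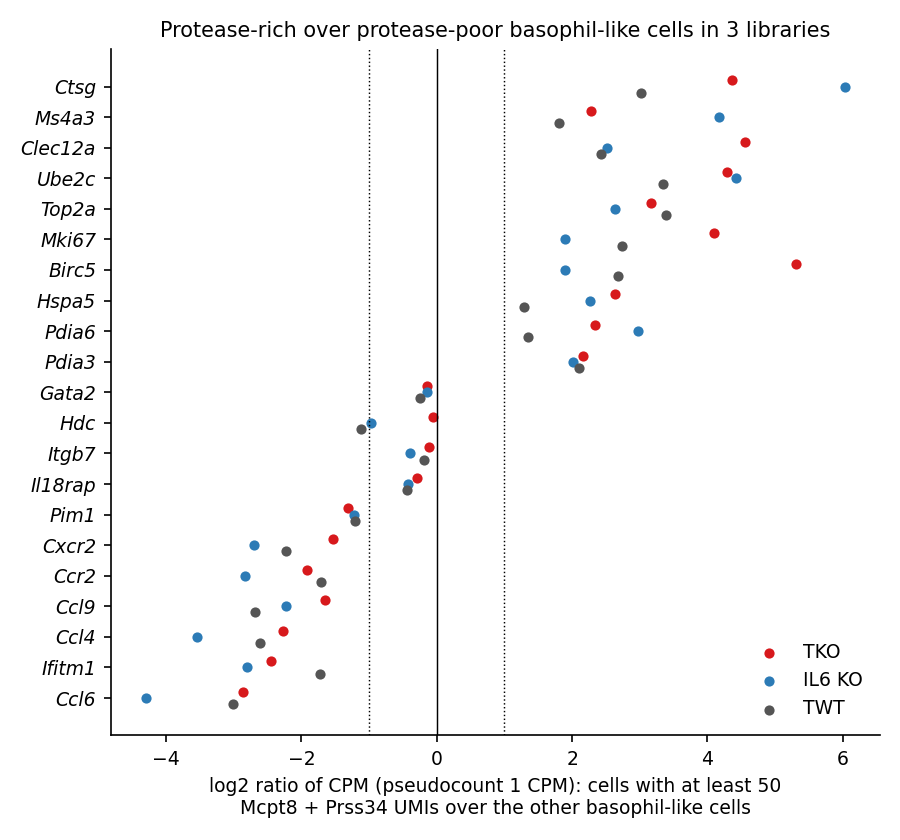
Log2 ratio of CPM (x axis, pseudocount 1 CPM) of protease-rich over protease-poor basophil-like cells for 21 genes (y axis) in TKO, IL6 KO and TWT, with dotted lines at 2-fold. The division, progenitor and folding genes shown lie right of the dotted line and chemokine genes left of it in all 3 libraries, with Gata2, Itgb7 and Il18rap between.

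Il6 transcripts were found in the basophil-like cells of TKO, IL6 KO and TWT. Members had 68 UMIs of Il6 in TKO (127 CPM, 98.5 to 161), 45 in IL6 KO (106 CPM, 77.5 to 142) and 48 in TWT (108 CPM, 79.9 to 144), with at most 5 UMIs in any cell, and 1 UMI in DKO. The intervals overlapped. Il6 had a UMI in 48.3% of members in TKO, 35.3% in IL6 KO and 42.0% in TWT. Thinned to 1500 UMIs the shares were 26.7%, 16.5% and 19.8%, against at most 0.165% of B cells thinned alike. Granulocytes, other filtered cells with at least 10% of UMIs from S100a8 and S100a9, had more of it than B cells in TKO and IL6 KO. Without thinning, Il6 had a UMI in 7.65% of granulocytes in TKO, 7.58% in IL6 KO and 0% in TWT. In TWT 48 of the 51 Il6 UMIs of all filtered cells (94.1%, 83.8 to 98.8%) lay in the 81 members. In TKO members held 68 of 548 (12.4%, 9.77 to 15.5%), in IL6 KO 45 of 563 (7.99%, 5.89 to 10.5%) and in DKO 1 of 20 (5%, 0.127 to 24.9%). Protease-rich and protease-poor cells both had it, with 36 and 32 UMIs in TKO, 24 and 21 in IL6 KO and 17 and 31 in TWT. The counts come from the 3′ end of the transcript. Whether that end lies outside the altered part of the knockout allele is not stated in these sources, so Il6 UMIs in TKO and IL6 KO do not check those labels and do not show IL-6 protein. Il6 lies at chr5:30013114-30019981 (GRCm38, plus strand).

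**Figure D4:**
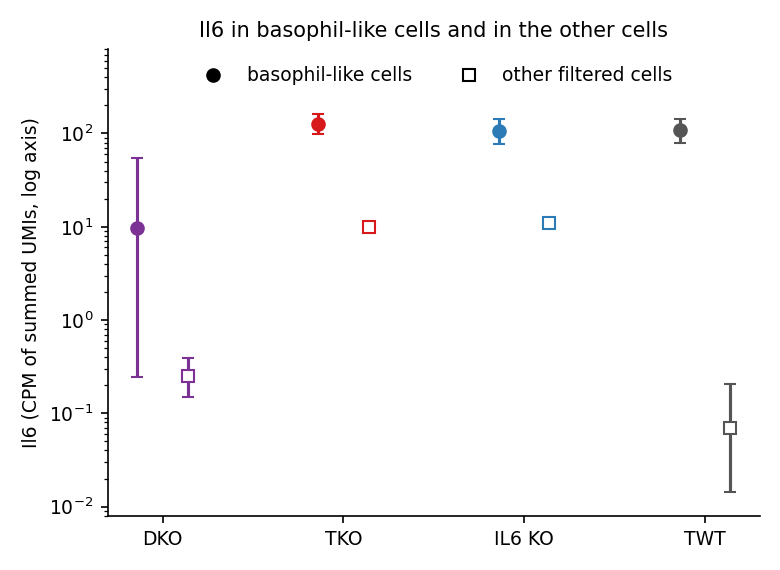
Il6 in CPM of summed UMIs (y axis, log scale) in basophil-like cells (filled circles) and in the other filtered cells (open squares) of each library (x axis), with exact Poisson 95% intervals. Basophil-like cells of TKO, IL6 KO and TWT lie between 106 and 127 CPM, and the other cells at 9.95 CPM in TKO, 11.0 in IL6 KO and 0.0701 in TWT.

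Few genes of basophil-like cells were 2-fold apart between genotypes. Summed over members, 1745 genes were measured for IL6 KO over TWT, and 25 (1.43%) were at least 2-fold higher and 16 (0.917%) at least 2-fold lower. For TKO over TWT 21 (1.22%) of 1716 were higher and 19 (1.11%) lower, and for TKO over IL6 KO 26 (1.47%) of 1764 were higher and 33 (1.87%) lower. The median log2 ratio was 0.03, 0.01 and -0.03 in that order. Any 2 of these comparisons share a library. In either direction 41 (2.35%), 40 (2.33%) and 59 (3.34%) genes were called in the same order. Calls could rest on very few cells. With the 3 cells richest in each gene left out of each library, 30 of the 41 calls for IL6 KO over TWT were left (1.72%, 1.09% higher and 0.63% lower). For TKO over TWT 26 of the 40 were left (1.52%, 0.758% higher and 0.758% lower), and for TKO over IL6 KO 50 of the 59 (2.83%, 1.13% higher and 1.7% lower). This check was added after seeing the data. Hbb-bs, adult β-globin, had 1424 UMIs in TKO, 977 in IL6 KO and 60 in TWT, and 2 cells in TKO and 1 in IL6 KO held 96.3% and 95% of the erythroid marker UMIs. The eosinophil granule gene Prg2 had 380 UMIs in 4 TKO cells, 605 in 2 IL6 KO cells and 1965 in 3 TWT cells. The B cell genes Vpreb3 and Ebf1 came from at most 6 cells in any library. Without the members that had 10 or more UMIs of eosinophil, B cell or erythroid markers, the log2 ratio of Hbb-bs was -0.30 for IL6 KO over TWT and -1.02 for TKO over TWT, and that of Prg2 was 1.87 and 3.70. Members under 10 UMIs of eosinophil markers held 29 UMIs of that whole list in TKO, 24 in IL6 KO and 28 in TWT. These Prg2 ratios therefore rest on few UMIs, and no direction is read from them.

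The basophil-like cells of TKO stood apart from those of both other genotypes in few genes. TKO was at least 2-fold higher than both in 8 (0.491%) of 1628 genes and at least 2-fold lower in 9 (0.553%), globin and eosinophil genes included. Without the 3 cells richest in each gene, 3 of the 8 (Btnl9, Cd69 and Hist1h4d) and 6 of the 9 were left. The higher gene furthest from both among those left was Btnl9, a butyrophilin-like gene of the immunoglobulin superfamily. It had 246 UMIs in 72 of 87 TKO members (459 CPM, 403 to 520), 23 in 18 IL6 KO members (54.3 CPM, 34.4 to 81.5) and 27 in 22 TWT members (61.0 CPM, 40.2 to 88.7). It was 7.52-fold higher in TKO than in TWT (5.05 to 11.7) and 8.45-fold higher than in IL6 KO (5.51 to 13.6). The difference was there in both ends of the range, at 418 CPM in TKO against 72.4 in TWT among protease-rich and 517 against 49.6 among protease-poor cells. In the other filtered cells Btnl9 had 3.17 CPM in TKO, 4.52 in IL6 KO and 5.94 in TWT. Among the 9 DKO cells, left out of the comparisons, Btnl9 had 3 UMIs in 1 cell (29.4 CPM). It lies at chr11:49165585-49187159 (GRCm38, minus strand), 5.79 Mb from Mir146, the deleted microRNA gene. Grm6, which was high in IL6 KO and is named below, lies 7.48 Mb from Mir146. Any bearing of these distances on either gene was not tested.

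Cd69, an early activation receptor that holds cells in tissue, was also higher in TKO. It had 89 UMIs in TKO (166 CPM, 133 to 204), 15 in IL6 KO (35.4 CPM, 19.8 to 58.4) and 20 in TWT (45.2 CPM, 27.6 to 69.8), a ratio of 3.67 (2.24 to 6.30) to TWT. The 9 DKO cells, a mixture left out of the comparisons, had 13 UMIs in 6 cells (127 CPM, 67.8 to 218). In the other filtered cells it had 27.6 CPM in DKO, 19.2 in TKO, 11.4 in IL6 KO and 13.9 in TWT. Of 17 measured genes of the stage and trafficking list, Cd69 was the only one called in TKO over TWT. Bcl2, the survival factor, and Id2, an inhibitor of helix-loop-helix factors, were higher in TKO as well, with 86 and 64 UMIs against 32 and 20 in IL6 KO and 32 and 24 in TWT, but without the 3 cells richest in each gene their log2 ratios to TWT were 0.54 and 0.79. With at least 10 rule UMIs per cell those of Bcl2 and Id2 were 0.14 and 0.53, and without Cpa3 in the rule 0.091 and 0.55. The replication histone gene Hist1h4d had 143 UMIs in TKO, 34 in IL6 KO and 32 in TWT and lay in 29, 13 and 14 cells in that order. Hist1h2ap went the other way, with 35, 93 and 79 UMIs, but its log2 ratio to TWT was -0.52 without the 3 richest cells, against -1.44 with them. The histone genes are near-identical copies, so reads could be split among them.

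Lower in TKO were Diaph1, which the genotype lacks, and immunoglobulin genes. Igkc, the κ light chain, had 41 UMIs in 35 TKO members, 179 in 65 IL6 KO members and 188 in 59 TWT members. In the other filtered cells it had 7546 CPM in TKO, 18361 in IL6 KO and 21887 in TWT. Ighm had 76.5 CPM in TKO members, 208 in IL6 KO and 255 in TWT, and 1162, 2499 and 5493 CPM in the other cells. The part of free RNA in these values was not tested. Cd74, the invariant chain of MHC class II, had 14 UMIs in 4 TKO members, 66 in 5 IL6 KO members and 84 in 9 TWT members. Without the cells bearing eosinophil, B cell or erythroid markers, the log2 ratio of Cd74 for TKO over IL6 KO was 0.15, so its direction turned. Rassf2 and the ribosomal pseudogene Gm10076 were lower too, the second with 60 UMIs in TKO, 151 in IL6 KO and 165 in TWT, and its level in the other cells was 77.1, 204 and 195 CPM in that order. The log2 ratio of Rassf2 was under 2-fold in size in 4 of 15 alternatives against TWT and in 5 against IL6 KO. Rassf2 also went unmeasured with both minimums for a measured gene raised by 2-fold.

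IL6 KO stood apart from TWT and TKO in 8 genes. Xist was 1 of the 7 (0.422%) of 1657 that were at least 2-fold higher, at least 229-fold over TWT on a floor of 3 counts per library. Vpreb3 and Ebf1 were the B cell genes named above. Grm6, a metabotropic glutamate receptor gene, had 57 UMIs in 38 of 85 IL6 KO members (135 CPM, 102 to 174), against 16 in 14 TKO members (29.8 CPM, 17.1 to 48.5) and 14 in 11 TWT members (31.6 CPM, 17.3 to 53.1). It was 4.25-fold higher than in TWT (2.34 to 8.27), and among protease-poor cells it had 181 CPM in IL6 KO against 13.5 in TWT. Members held 84.2% of the Grm6 UMIs of the filtered cells in TKO, 86.4% in IL6 KO and 50% in TWT. Gstm1, Ccpg1 and Runx2 were the others, and their calls over TWT were less stable. The log2 ratio of Runx2 was under 2-fold in 8 of 15 alternatives and that of Ccpg1 in 5. That of Gstm1 was so in 4, in 1 of which its direction turned (log2 ratio -0.049). Runx2 and Ccpg1 also went unmeasured with both minimums for a measured gene raised by 2-fold. Rbm3, an RNA-binding protein induced by mild cold, was the only one lower (0.0604%). It had 686 CPM in TKO members, 295 in IL6 KO and 651 in TWT, and in the other cells 503, 284 and 488. Cirbp, its relative, had 108, 61.4 and 156 CPM in members and 39.7, 26.6 and 71.6 in the other cells, all in the order TKO, IL6 KO and TWT.

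**Figure D5:**
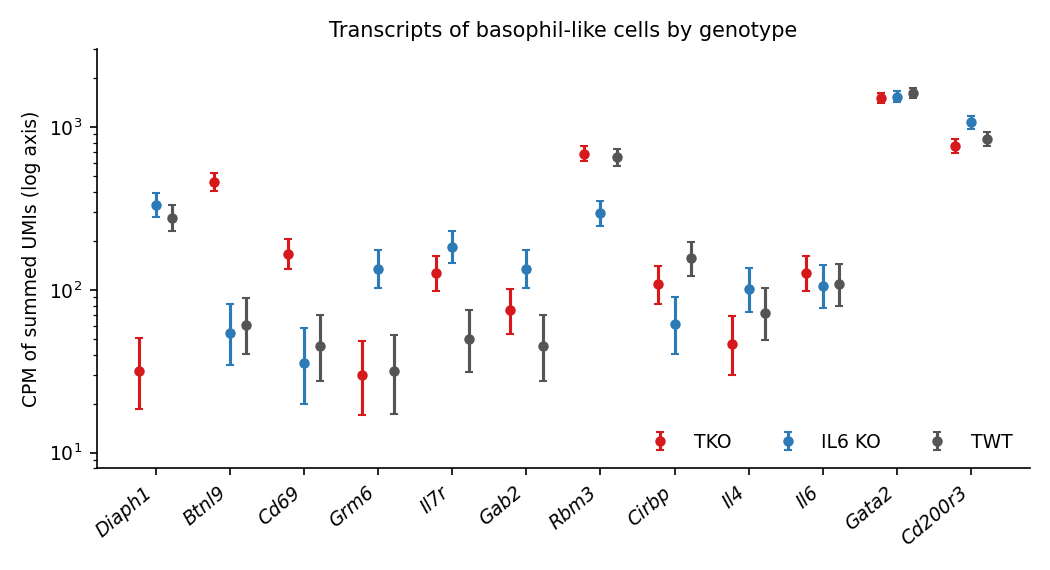
CPM of summed UMIs (y axis, log scale) of 12 genes (x axis) in basophil-like cells of TKO, IL6 KO and TWT, with exact Poisson 95% intervals. Btnl9 and Cd69 are high in TKO, Grm6 in IL6 KO, Il7r in both, Diaph1 low in TKO, and Il6 and Gata2 overlap in all 3.

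Signaling and cytokine genes showed few differences. Among cytokine receptors 1 of 7 measured was higher in IL6 KO than in TWT and 1 of 7 in TKO than in TWT, in both cases Il7r, the IL-7 receptor that also binds thymic stromal lymphopoietin with Crlf2. Il7r had 68 UMIs in 36 TKO members (127 CPM, 98.5 to 161), 78 in 34 IL6 KO members (184 CPM, 146 to 230) and 22 in 16 TWT members (49.7 CPM, 31.1 to 75.2). Its ratio to TWT was 2.55 (1.56 to 4.34) in TKO and 3.70 (2.28 to 6.25) in IL6 KO. In the other cells it had 30.5, 47.4 and 33.6 CPM in the order TKO, IL6 KO and TWT. Of the IgE receptor list, 1 of 11 was higher in IL6 KO than in TWT, the adaptor gene Gab2, with 40 UMIs in TKO (74.6 CPM), 57 in IL6 KO (135 CPM) and 20 in TWT (45.2 CPM), and 0 of 10 were called for TKO over TWT. The median log2 ratio of that list was 0.09 for IL6 KO and -0.05 for TKO over TWT.

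Il4 was the only 1 of 11 cytokine genes called for TKO over IL6 KO. It had 25 UMIs in TKO (46.6 CPM, 30.2 to 68.9), 43 in IL6 KO (102 CPM, 73.5 to 137) and 32 in TWT (72.3 CPM, 49.4 to 102), and the 9 DKO cells had 0. The ratio of TKO to IL6 KO was 0.459 (0.269 to 0.769). Protease-poor cells had 8 UMIs in TKO (46 cells) and 34 in IL6 KO (54 cells), and protease-rich cells had 17 (41 cells) and 9 (31 cells). These are few UMIs over unlike numbers of cells, and where the difference lay was not tested. Of the 19 genes of the cytokine list, Il3, Csf2, Areg and Lif had no UMI in TKO, IL6 KO or TWT members. The median log2 ratio of the list was -0.57 for TKO over IL6 KO, 0.20 for IL6 KO over TWT and -0.25 for TKO over TWT.

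Among lineage transcription factors 12 were measured in each comparison, and Id2 was higher in TKO than in TWT. Runx3, which with Id2 was higher in TKO than in IL6 KO, had 144 CPM in TKO, 54.3 in IL6 KO and 104 in TWT, and 17 of its 77 UMIs in TKO came from 1 cell. Gata2 had 1504 CPM in TKO, 1530 in IL6 KO and 1615 in TWT. Cebpa had 640, 659 and 558, in that order. Of 6 measured genes of the IL-6 and STAT3 response list, Junb, an immediate early gene, was higher in IL6 KO (246 CPM) than in TWT (120 CPM), and 0 were called for TKO (187 CPM of Junb) over TWT. The log2 ratio of Junb, at 1.03, was under 2-fold in 5 of 15 alternatives, the lowest value being 0.77. The list's median log2 ratio was 0.49 and 0.12 in these comparisons. Pim1, a STAT-induced kinase, had 222 CPM in TKO, 260 in IL6 KO and 158 in TWT, and Socs3 had 4, 0 and 2 UMIs. None of the 4 measured Toll-like receptor and miR-146a target genes was called for TKO over TWT, where their median was -0.33. Irak1, a target of miR-146a, had 55.96 CPM in TKO, 102 in IL6 KO and 63.3 in TWT, and Traf6, another target, had 8, 7 and 8 UMIs. Among 12 formin and actin regulator genes only Diaph1 was called for TKO over TWT, and its paralog Diaph2 had 61.6 CPM in TKO, 63.7 in IL6 KO and 36.1 in TWT. The granule protease list (4 measured), the histamine and lipid mediator list (5), the ribosomal proteins (18) and nuclear oxidative phosphorylation genes (14) had no call in any of the 3 comparisons.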

How the data were processed

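The deposited matrices held UMI counts as whole numbers for every gene in every barcode, made by the authors with Cell Ranger (version 3.0.2 in the matrix header) on mm10 from 10x 3′ v3 libraries; the submitters' processing notes also name Seurat 4. The counts were used as deposited, without Seurat. Cells were selected by the rule given in the report, UMIs were summed over members and scaled to CPM, and a gene counted as measured from 100 CPM in 1 of the libraries compared and 50 UMIs over the pair, and as called from 2-fold. Log2 ratios used a pseudocount of 1 CPM. Shares have exact Clopper-Pearson intervals, counts exact Poisson and ratios exact conditional binomial intervals, all at 95%. PCR duplicates were removed by UMI upstream, and intervals and floors (3 counts) cover counting error only. B cells were filtered cells outside the members with at least 5 UMIs of Cd79a and Cd79b together and under 10% from S100a8 and S100a9. Doublets were called with Scrublet in scanpy 1.11.5 and kept unless stated. Python 3.11.15, numpy 2.4.6, scipy 1.17.1, pandas 2.3.3 and matplotlib 3.10.9 were used. Coordinates are from GENCODE for GRCm38, promoters and microRNAs from RefSeq for GRCm38.p6. The size rule was tested on simulated data, but the outcome is not given here and nothing in the report rests on it. The members, the gene lists (12 of cell type markers, 18 of functions) and the tests were chosen with earlier results of these data known. Named genes were the rule and marker genes, the 4 measured genes per list whose log2 ratio was furthest from 0, the 8 highest and 8 lowest called genes per comparison, the genes setting TKO apart from TWT and IL6 KO, label checks, and genes whose role is given as background. Others are said to be named after their values were seen. Every library was from animals labelled 12 months old. Alternatives were another threshold on the rule genes, the S100 share, the number of detected genes, doublets, scaling, pseudocount, filters, averaging and equal depth.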

Additional observations from a re-analysis of the deposited data

Results flagged for a closer look

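Il6 UMIs outside the basophil-like cells were looked at because they were above TWT in both libraries labelled IL-6 deficient. The other filtered cells had 480 Il6 UMIs in TKO (9.95 CPM) and 518 in IL6 KO (11.0 CPM), against 3 in TWT (0.0701 CPM) and 19 in DKO. Granulocytes, cells with at least 10% of UMIs from S100a8 and S100a9, held 369 of those in TKO and 385 in IL6 KO, against 0 in TWT.

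Cells above the upper limit of 4000 detected genes that otherwise met the rule were left out of the report. There were 7 in DKO, 21 in TKO, 16 in IL6 KO and 26 in TWT.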

How the results depend on the processing

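No paired analysis was possible because each genotype had 1 library and the labels give no replicate numbers. The share of basophil-like cells in DKO was 0.0415% (4 cells) without Cpa3 in the rule. With a lower minimum and no maximum of detected genes, changed together, dividing cells were 42.2% in TKO, 34.7% in IL6 KO and 43.9% in TWT, and 22 genes were 2-fold apart for TKO over TWT (2 of them listed) and 34 for TKO over IL6 KO (5 listed). Raising both minimums for a measured gene by 2-fold left 13 genes for IL6 KO over TWT, 16 for TKO over TWT and 21 for TKO over IL6 KO, and a filter of 10 UMIs alone gave 889, 860 and 919. With the mean of each cell's CPM, TKO over TWT had 61 genes and 9 listed ones, and IL6 KO over TWT had 3 listed. Without the 3 cells richest in each gene, TKO over TWT had 26. The DKO share was 0.157% (16 cells) with both limits on detected genes changed and 0.0623% (6 cells) with at least 10 rule UMIs. A like count need not mean the same genes, since 39 genes were called for IL6 KO over TWT with both limits changed and 9 of them were among the 41.

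Several log2 ratios changed sign, but those of Prg2, Epx, Vpreb3 and Klrd1 rest on very few cells. In TKO, IL6 KO and TWT, Prg2 had UMIs in 4, 2 and 3 members and Vpreb3 in 2, 4 and 1. Epx had them in 1, 1 and 3 members and Klrd1 in 1, 2 and 2, in the same order. Leaving such cells out can put 1 side at or near 0, where the pseudocount weighs on the ratio. No direction is read from these 4 genes. Without cells bearing eosinophil, B cell or erythroid markers, IL6 KO over TWT was 0.19 for Elane, -0.93 for Hba-a1, -0.30 for Hbb-bs, -0.85 for Hbb-bt and 1.87 for Prg2. TKO over TWT was -0.30 for Hba-a1, -1.02 for Hbb-bs, -1.94 for Hbb-bt, 3.70 for Prg2 and -0.35 for Retnlg. TKO over IL6 KO was 0.15 for Cd74, -1.09 for Hbb-bt, 1.83 for Prg2, -0.98 for Retnlg and 1.59 for Vpreb3. With Scrublet doublets removed, IL6 KO over TWT was -1.13 for Hba-a1, -0.45 for Hbb-bs, -0.99 for Hbb-bt and 0.87 for Prg2, and TKO over TWT was 1.13 for Epx. Without the 3 cells richest in each gene, IL6 KO over TWT was -0.78 for Hba-a1, -0.26 for Hbb-bs and -1.11 for Hbb-bt. TKO over TWT was then -0.20 for Hba-a1, -0.88 for Hbb-bs, -1.95 for Hbb-bt, 1.52 for Prg2 and -0.27 for Retnlg, and TKO over IL6 KO was -0.84 for Hbb-bt, 1.52 for Prg2 and -0.89 for Retnlg. With the minimum of detected genes lowered and the maximum dropped together, IL6 KO over TWT was -0.049 for Gstm1 and TKO over IL6 KO was -1.27 for Retnlg. With 3 rule UMIs, IL6 KO over TWT was 0.84 for Iglc1. With 10, TKO over TWT was -4.93 and TKO over IL6 KO -2.69 for Klrd1. Without Cpa3 these were -4.93 and -2.59, and Prg2 was 1.91 for TKO over IL6 KO. Apart from the cells left out, the cause was not tested. By log2 ratio alone, Btnl9, Cd69, Diaph1, Gab2, Grm6 and Il7r stayed at least 2-fold apart in all 15 alternatives, in the comparisons that called them. Runx2 (IL6 KO over TWT) was under 2-fold in 8. Junb and Ccpg1 (IL6 KO over TWT) and Bcl2, Id2 and Chst13 (TKO over TWT) were so in 5 each. Rassf2 for TKO over IL6 KO was so in 5 and Il4 in 3. These counts do not ask whether a gene was still measured. With both minimums for a measured gene raised by 2-fold, Cd69, Gab2, Grm6 and Il7r were not measured. Nor were Runx2, Ccpg1, Bcl2, Id2, Rassf2 and Il4. Single libraries limit every comparison of genotypes, and sex also differs in those with IL6 KO. Leaving out cells with other markers, or the 3 richest, was chosen after seeing the data.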
